A study of Mus musculus with 15 samples.

Results

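The 10 genes described here are regulators of epithelial identity: the grainyhead-like factors Grhl1, Grhl2 and Grhl3, the OVO-like zinc finger factors Ovol1 and Ovol2, the epithelium-specific Ets factors Elf3 and Ehf, the epithelial splicing regulators Esrp1 and Esrp2, and the zinc finger factor Klf5. They were matched by symbol, and all 10 are among the 17271 genes of the deposited expression table. The samples were 15 bulk mouse mammary tumours, all of genotype p53-NULL (p53-/- in the table) and strain Balbc, from 4 tumour models. There were 8 samples of 2208L, 4 of 2151R, 2 of 2225L and 1 of T11. The titles of 2151R read NT and NT2 in replicates 4 and 3, and carry codes that the labels do not explain in replicates 1 and 2. Those of 2208L read PBS in 4 samples, 3day nt in 3 and ROSEN in 1. Those of 2225L read T-Vivo with a CP number in replicate 1 and ROSEN in replicate 2. No title names a drug, and age is not given. The labels do not say that samples of a model came from separate animals, so p-values measure the spread between these samples, which may in part be technical.

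Epithelial cells keep their junctions and polarity through a small set of transcription factors. Grainyhead-like factors bind at genes of adherens and tight junctions, OVO-like factors repress Zeb1 and other drivers of epithelial-mesenchymal transition (EMT), and Zeb factors in turn repress epithelial genes through E-boxes in their promoters. The Esrp proteins bind RNA and direct the epithelial choice of exons in genes such as Fgfr2 and Cd44, and claudin-low mammary tumours are known for low junction gene expression.

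A value in the table is a log2 ratio to a median level of the same gene, and the samples behind that median are not stated. Values can therefore be compared between samples for a gene, and differences in log2 units between genes, but a low value does not show that a gene is silent. Sequencing depth is unknown, since the table gives no counts, and n alone shows how firm a value is. In bulk tissue, fewer cells of a type and less RNA per cell cannot be told apart. The numbers after CP in the titles run in separate ranges for 2151R, for the PBS samples and for the 3day nt samples. What CP, ROSEN and these numbers stand for is not given in the labels. Any batch that they mark cannot be told apart from these groups.

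The members lie on 8 chromosomes in the RefSeq annotation of GRCm38.p6, the assembly that the submitters' notes name as mm10. Only 2 pairs share a chromosome: Grhl3 (chr4:135541887-135573632) with Esrp1 (chr4:11331933-11386783), and Ovol2 (chr2:144305175-144332080) with Ehf (chr2:103263431-103303275). The others are Grhl1 (chr12:24572232-24617391), Grhl2 (chr15:37232821-37363569), Ovol1 (chr19:5549137-5560575), Elf3 (chr1:135253574-135258472), Esrp2 (chr8:106130319-106137193) and Klf5 (chr14:99298691-99313412).

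Promoter sequences from RefSeq (GRCm38.p6, 250 bases before to 50 after an annotated start) were matched for 4 members, Grhl1 with 2 starts and Grhl3, Ovol2 and Elf3 with 1 each. The E-box bound by Zeb and Snai factors (CAGGTG, or CACCTG on the other strand) was found in 2 of these 5 windows, at Elf3 and Grhl3, and in 20.2% of 32851 promoter windows of this length. These upstream sequences are shown because they hold the E-box, in capitals. Grhl1 and Ovol2, whose windows held none, were also low in 2151R (below). Each is written 5′ to 3′ on the strand of the gene, which is the minus strand for both, and covers chr1:135258473-135258722 for Elf3 and chr4:135573633-135573882 for Grhl3.
Elf3: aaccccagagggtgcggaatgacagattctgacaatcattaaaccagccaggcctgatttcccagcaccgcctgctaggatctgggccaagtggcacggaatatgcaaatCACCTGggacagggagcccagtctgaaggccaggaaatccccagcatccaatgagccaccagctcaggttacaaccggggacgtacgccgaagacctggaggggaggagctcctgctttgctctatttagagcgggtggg
Grhl3: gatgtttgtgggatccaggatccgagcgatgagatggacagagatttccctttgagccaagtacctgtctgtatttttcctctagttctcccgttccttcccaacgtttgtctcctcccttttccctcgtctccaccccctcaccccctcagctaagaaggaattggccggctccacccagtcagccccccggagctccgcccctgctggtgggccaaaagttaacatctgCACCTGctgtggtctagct
The E-box of Elf3 lay from -140 to -135 and that of Grhl3 from -19 to -14, with the first transcribed base as 0, and Grhl3 had another from 8 to 13. The Grhl site AACCNGTT was in 0 of the 5 windows (2.09% of all promoters), the Ovol site CCGTTA in 0 (2.76%), the Ets site AGGAAG in 1, at Grhl1 (35.4%), and the Klf site CCNCACCC in 2, at Elf3 and Grhl3 (16.6%), all searched on both strands. No matches of different motifs overlapped in these windows. A match describes the letters and is not evidence of binding.

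The first question was how far the regulators separate the 4 models. Of the 10 members, 9 fell in 2151R relative to 2208L and 0 rose, with limma and an adjusted p (Benjamini-Hochberg over all genes) under 0.05, where 22.7% of all genes fell. The same 9 genes had samples of 2151R that did not overlap those of 2208L, which was so for 18.2% of genes in this direction. The median difference over the 10 members was -6.47 log2 units, and over all genes 0.10. Klf5 was the exception.

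**Figure D1:**
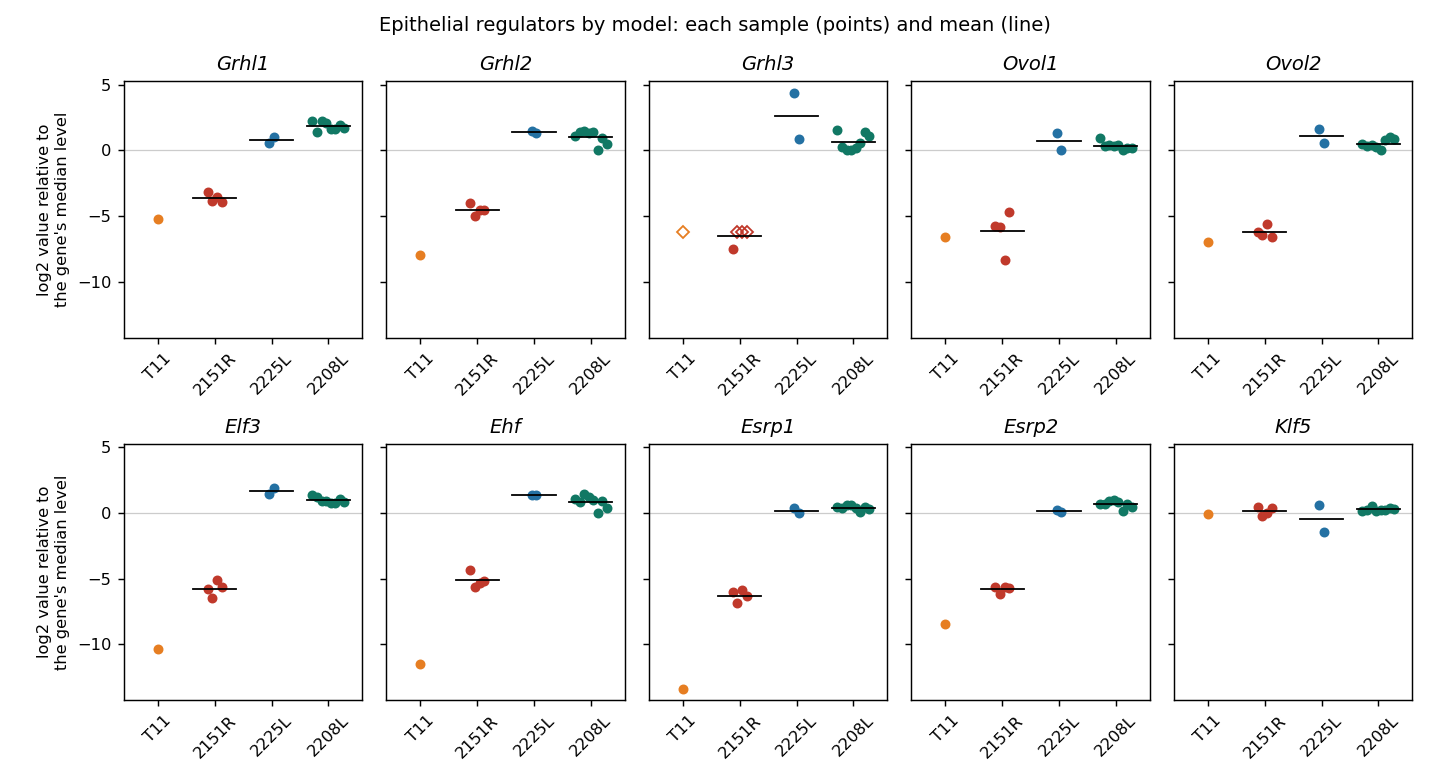
Log2 value relative to the median level of the gene (vertical axis) for each member in T11 (1 sample), 2151R (4), 2225L (2) and 2208L (8); each point is a sample, lines are means, and open diamonds mark the value of Grhl3 that 4 samples share. For 9 of the 10 genes all samples of 2151R and T11 lie below all samples of 2225L and 2208L, and for Klf5 the models overlap.

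Among the grainyhead-like factors, Grhl2, which is required for epithelial junctions in the embryo and binds at Cdh1, was -4.04, -4.96, -4.50 and -4.51 in the 4 samples of 2151R. In 2208L it ran from 0.00 to 1.45 with a median of 1.20. The difference was -5.51 (SE 0.27, limma adjusted p 2.65e-09), and the lowest sample of 2208L was still above every sample of 2151R. Grhl1, a regulator of desmosomal genes in skin, was -3.18, -3.82, -3.54 and -3.91 in 2151R and from 1.41 to 2.27 in 2208L, with a median of 1.82. It differed by -5.47 (SE 0.20, limma adjusted p 1.31e-10).

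Grhl3, which acts in epidermal barrier formation and wound closure, was the member whose lowest values need care. It was -7.47 in replicate 1 of 2151R, and replicates 2, 3 and 4 shared exactly -6.22, a value that T11 had too. What a shared value stands for is not stated, and it was the only such value among the members, against 727 of the 17271 genes. In 2208L Grhl3 ran from 0.00 to 1.57 with a median of 0.42, so no sample reached the shared value. The difference of -7.18 (SE 0.54, limma adjusted p 1.82e-07) therefore rests on it.

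Both OVO-like factors were low in 2151R. Ovol2, which represses Zeb1 in mammary epithelium, was -6.22, -6.40, -5.61 and -6.58 in 2151R, against 0.00 to 0.996 with a median of 0.44 in 2208L. The difference was -6.71 (SE 0.25, limma adjusted p 1.50e-10). Ovol1, which restrains the growth of epidermal progenitors, was more scattered in 2151R, at -5.72, -5.85, -8.32 and -4.71. It ran from 0.00 to 0.97 with a median of 0.33 in 2208L, and differed by -6.50 (SE 0.50, limma adjusted p 2.17e-07). Its 4 samples of 2151R had an SD of 1.53, the widest among the members, and were still apart from those of 2208L.

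The epithelium-specific Ets factors followed the same order. Elf3, which is induced in differentiating and inflamed epithelia, was -5.79, -6.49, -5.11 and -5.62 in 2151R and from 0.77 to 1.36 with a median of 0.91 in 2208L. It differed by -6.73 (SE 0.22, limma adjusted p 5.18e-11). Ehf, expressed in glandular epithelia, was -4.35, -5.61, -5.35 and -5.18 in 2151R and from 0.00 to 1.48 with a median of 0.99 in 2208L. It differed by -5.99 (SE 0.28, limma adjusted p 1.49e-09), with no overlap in either gene.

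The splicing regulators had the smallest errors of the members. Esrp1 was -6.01, -6.88, -5.88 and -6.33 in 2151R and from 0.08 to 0.60 with a median of 0.44 in 2208L. It differed by -6.68 (SE 0.18, limma adjusted p 1.40e-11). Esrp2 was -5.60, -6.15, -5.60 and -5.71 in 2151R and from 0.17 to 0.98 with a median of 0.69 in 2208L, and differed by -6.45 (SE 0.17, limma adjusted p 1.19e-11). The 2 genes are paralogues and differed by nearly the same amount between these models.

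Klf5, a zinc finger factor of proliferating basal and intestinal epithelium, did not follow the other members. It was 0.45, -0.21, 0.00 and 0.40 in 2151R and from 0.18 to 0.51 with a median of 0.25 in 2208L. The samples overlapped, and the difference was -0.14 (95% confidence interval -0.75 to 0.48, limma adjusted p 0.716). Klf5 also varied least over the 15 samples, with an SD of 0.50 at percentile 31.7 of all genes, while the SD of the other 9 ran from 2.78 to 4.29, at percentiles from 96.2 to 99.7.

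The 9 calls held in each of the 12 fits that left out 1 sample, with only the samples whose titles read NT, nt or PBS, and with quantile normalization or sample centring. Only leaving out genes with a repeated value changed the count, to 8, since Grhl3 was then not tested. With the libraries of high skeletal muscle level left out (replicate 3 of 2151R and replicates 6 and 8 of 2208L, an alternative chosen after the data were seen) 9 members were called. Macrophage, endothelial and fibroblast markers were higher in 2151R in 6 of 7, 4 of 4 and 3 of 6 genes, with marker levels (the list's mean, with every gene first centred on its 15 samples) of 0.82 to 1.16, 0.57 to 1.23 and 0.51 to 1.48, against -0.79 to 0.28, -1.22 to 0.18 and -2.02 to 0.85 in 2208L. Of 6 adipocyte markers 2 were higher in 2151R, Lep (3.95) and Fabp4 (1.71), with a median difference of 4.08 and levels of 1.14 to 4.27 against -4.43 to 1.78. All these marker counts stand against 26.1% of all genes higher in 2151R, a share that the adipocyte count is near. The part of these markers in the result was not tested.

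**Figure D2:**
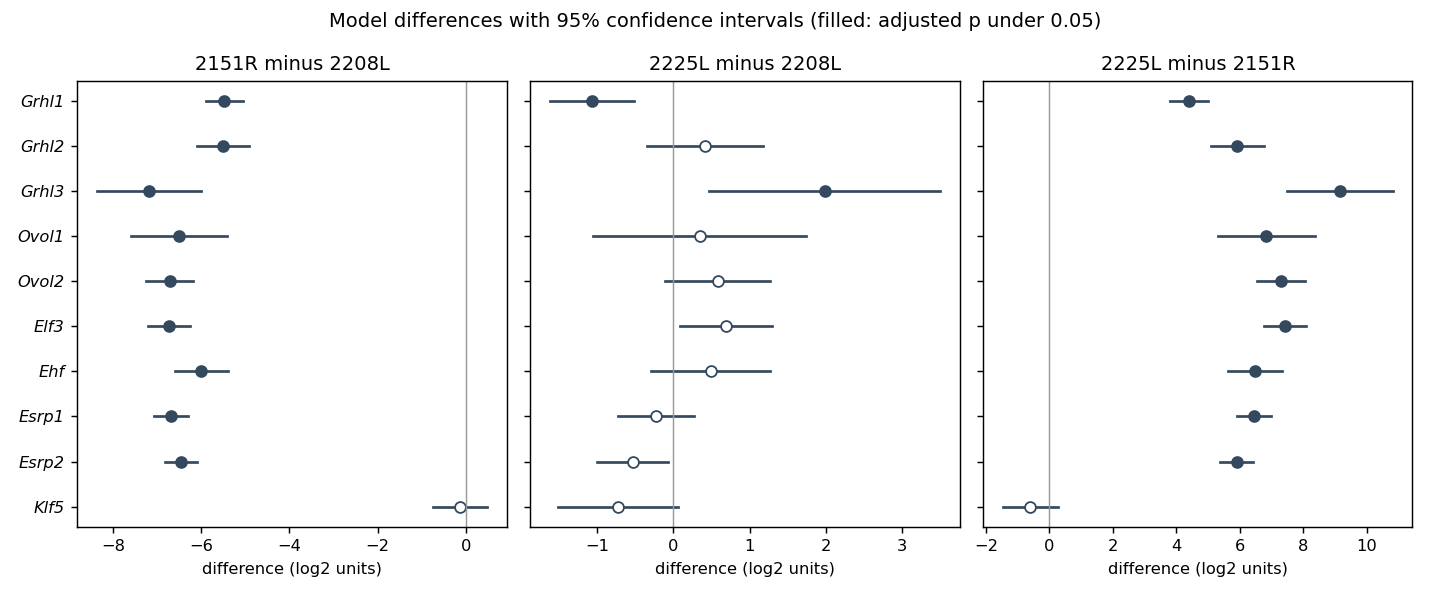
Difference between models in log2 units (horizontal axis) for each member, with 95% confidence intervals from limma; filled points have an adjusted p under 0.05. In 2151R minus 2208L 9 genes lie between -7.18 and -5.47, in 2225L minus 2208L only Grhl1 and Grhl3 are filled, and in 2225L minus 2151R 9 genes lie between 4.40 and 9.17.

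Related members can be compared within a sample. The difference between 2 related genes was taken in each sample and compared between 2151R and 2208L by a two-sided exact permutation test, for 6 pairs with Benjamini-Hochberg adjustment (with 4 and 8 samples no p below 0.00404 can arise). For Grhl1 minus Grhl3 the mean of 2151R was 2.92 ± 0.93 (SD, n = 4) and the mean of 2208L 1.21 ± 0.65 (SD, n = 8), so Grhl3 was lower by a further 1.71 log2 units than Grhl1 (exact p 0.00404, adjusted 0.0242). Grhl2 minus Grhl3 was 2.03 ± 0.96 (SD, n = 4) and 0.35 ± 0.97 (SD, n = 8), a further 1.68 (exact p 0.0121, adjusted 0.0364). Both rest on the shared value of Grhl3. The first was lost without replicate 1 (1.25) or 4 (1.92) of 2151R, and the second also without replicate 1, 2, 6, 7 or 8 of 2208L (1.53 to 1.79).

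For the other 4 pairs the threshold was missed. Grhl2 minus Grhl1 moved by -0.035 (exact p 0.917, adjusted 0.917, n = 4 and 8) and Ovol1 minus Ovol2 by 0.21 (exact p 0.828, adjusted 0.917, n = 4 and 8). Elf3 minus Ehf moved by -0.74 (exact p 0.0606, adjusted 0.0909, n = 4 and 8) and Esrp1 minus Esrp2 by -0.24 (exact p 0.0485, adjusted 0.0909, n = 4 and 8). Without replicate 3 of 2151R, 5 pairs passed, with Ovol1 minus Ovol2 at 1.13, Elf3 minus Ehf at -1.03 and Esrp1 minus Esrp2 at -0.31.

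T11 is a single sample, so its values have no replicate check. Its values were -5.20 for Grhl1, -7.99 for Grhl2 and -6.22 for Grhl3, the last being the shared value. Ovol1 was -6.56 and Ovol2 -6.97. The lowest were Esrp1 at -13.37, Ehf at -11.52 and Elf3 at -10.36, followed by Esrp2 at -8.47, while Klf5 was -0.03. Relative to the mean of 2208L, 9 of 10 members lay lower by more than 2 log2 units, Grhl3 among them through the shared value, where 8.01% of all genes did.

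T11 and 2151R were not alike in degree. Relative to the mean of 2151R, 5 of 10 members were lower in T11 by more than 2 log2 units, where 4.19% of all genes were. These were Esrp1 (-7.10), Ehf (-6.40), Elf3 (-4.61), Grhl2 (-3.49) and Esrp2 (-2.71). Grhl1 (-1.58) and Ovol2 (-0.77) were also below every sample of 2151R, which was so of 7 members and of 30.8% of all genes. Ovol1 (-0.41) and Klf5 (-0.19) lay within the range of 2151R, and Grhl3 (0.31) lay at the value that T11 shares with samples of 2151R. The size of these gaps depends on scaling: after quantile normalization only Ehf (-3.19) and Esrp1 (-3.13) were lower by more than 2 log2 units, Elf3 was -1.84, Grhl2 -1.26 and Esrp2 -0.39, and Ovol2 and Ovol1 were 0.94 and 1.02 higher in T11. Adipocyte markers were lower in T11 than the mean of 2151R by more than 2 log2 units in 6 of 6 genes (median -4.40), with a level of -1.70 against 1.14 to 4.27. The 8 skeletal muscle markers had a median difference of 2.43 (0.09 over all genes), with a level of 0.68 against -4.69 to 6.42. Their part in the T11 values was not tested.

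**Figure D3:**
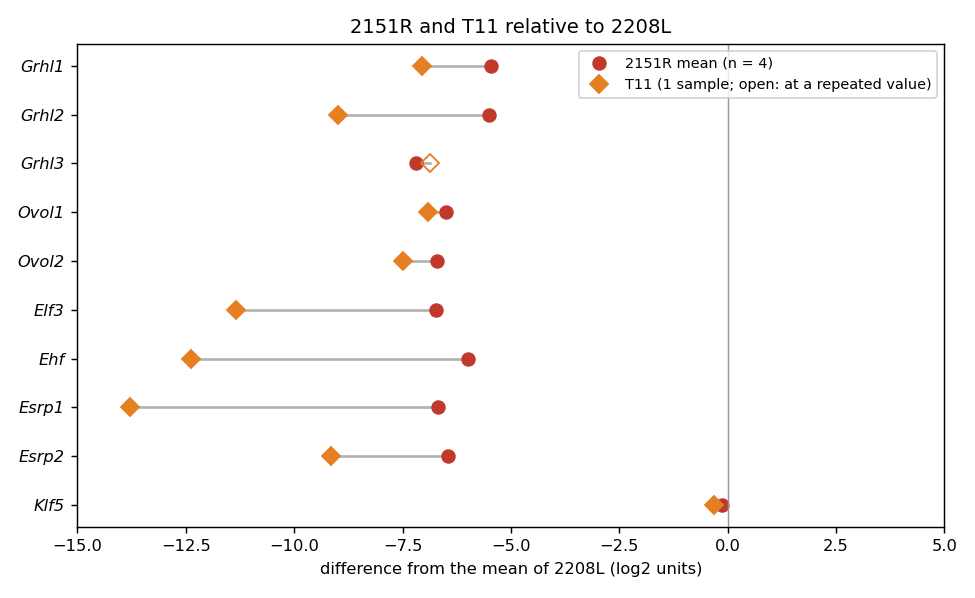
Difference from the mean of 2208L in log2 units (horizontal axis) for each member, as the mean of 2151R (circles, n = 4) and the single T11 sample (diamonds; open for Grhl3, at its shared value). T11 minus 2151R is -7.10 at Esrp1 and -6.40 at Ehf. T11 lies within 1 log2 unit of the 2151R mean at Ovol1, Ovol2 and Klf5, and also at Grhl3 through the shared value.

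The values of paralogues also parted in T11. Esrp1 minus Esrp2 was -4.90 in T11, against -0.73 to -0.28 in 2151R and -0.52 to -0.09 in 2208L. Grhl2 minus Grhl1 was -2.79, against -1.14 to -0.60 in 2151R and -1.60 to 0.01 in 2208L. Elf3 minus Ehf was 1.15, against -1.44 to 0.23 in 2151R and -0.58 to 0.77 in 2208L. These 3 values lay outside the ranges of 2151R and 2208L, in 1 sample and without a test. Esrp1 in T11, at -13.37, was near the lowest value of all genes and samples, -14.55. Each value is relative to its own gene's median and no detection limit is given. Whether these gaps are differences in expression or come from values near such a limit was not tested. Their gaps to 2151R were smaller after quantile normalization, where T11 minus 2151R was -1.26 for Grhl2 and -0.65 for Grhl1, -3.13 for Esrp1 and -0.39 for Esrp2, and -1.84 for Elf3 and -3.19 for Ehf.

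The luminal and basal mammary keratins (Krt5, Krt7, Krt8, Krt14, Krt17, Krt18 and Krt19) were read beside the members. In bulk tissue their RNA does not separate epithelial content from RNA per cell. In 2151R 5 of 7 fell relative to 2208L and 2 rose (limma, adjusted p under 0.05, against 22.7% and 26.1% of all genes). Krt7 was at -7.23 (SE 0.41) and Krt8, a luminal keratin, at -6.27 (SE 0.36). The 2 that rose were Krt5, a basal keratin, at 4.73 (limma adjusted p 0.00314) and Krt19, a luminal keratin, at 3.61 (limma adjusted p 0.00567). Their marker level was -1.81 to -0.74 in 2151R, -6.77 in T11, -0.22 to 1.71 in 2208L and 3.46 to 3.69 in 2225L. All 7 were lower in T11 than the mean of 2151R by more than 2 log2 units, with a median of -4.96, where 4.19% of all genes were. The share of the member differences that goes with epithelial content was not tested.

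The comparison of 2225L with 2208L asked whether the 2 models with high regulators differ from each other. They did so at 2 of 10 members by limma with an adjusted p under 0.05, 1 lower and 1 higher, against 17.3% and 15.6% of all genes. Samples did not overlap at 1 lower and 1 higher member, Grhl1 and Elf3, against 16.0% and 15.7% of all genes. Grhl1 was 0.56 and 1.01 in replicates 1 and 2 of 2225L, below the lowest sample of 2208L at 1.41. It fell by 1.07 log2 units (SE 0.25, limma adjusted p 0.00589), and without replicate 1 of 2225L the difference of -0.85 was no longer called (limma adjusted p 0.0735).

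Grhl3 was 4.39 in replicate 1 of 2225L and 0.87 in replicate 2, and only the first lay above 2208L. The difference of 1.99 (SE 0.70, limma adjusted p 0.0448) was close to the threshold and came from that sample. Without it the difference was 0.23, and with it alone 3.75. The call was also lost without any 1 of replicates 2 to 6 of 2208L (1.89 to 1.97), with only the groups compared in the fit (1.99), after quantile normalization (1.31) and without the libraries of high muscle level (2.05).

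The other 8 members did not pass. Elf3 was 1.45 and 1.90 in 2225L, above the highest 2208L sample at 1.36, with a difference of 0.69 (95% confidence interval 0.09 to 1.30, limma adjusted p 0.0751), and passed with only the groups compared in the fit (limma adjusted p 0.0364). Esrp2 was 0.24 and 0.05 in 2225L, a difference of -0.54 (interval -1.01 to -0.07, limma adjusted p 0.0763). It passed without replicate 6 of 2208L (-0.61) and without the libraries of high muscle level (-0.66). For Esrp1, at 0.36 and 0.00, the interval was -0.73 to 0.27. The intervals were -0.35 to 1.18 for Grhl2, -0.30 to 1.27 for Ehf, -0.11 to 1.27 for Ovol2 and -1.05 to 1.74 for Ovol1, so for these genes differences of 1 log2 unit are within what 2 samples allow.

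The samples of 2225L parted from each other at several members. Replicate 2 minus replicate 1 was -3.52 at Grhl3, -2.08 at Klf5, -1.31 at Ovol1 and -1.01 at Ovol2. At Klf5 replicate 1 was 0.60 and replicate 2 -1.47, above and below every other sample of the series. The difference of 2225L from 2208L was -0.73 (interval -1.52 to 0.06, limma adjusted p 0.148). It was -1.77 without replicate 1 (limma adjusted p 0.000284) and 0.31 without replicate 2. Title code (CP for replicate 1, ROSEN for replicate 2) and sample cannot be told apart here.

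Between 2225L and 2151R, 9 of 10 members were higher in 2225L by limma with an adjusted p under 0.05, against 22.8% of all genes. The differences ran from 4.40 at Grhl1 to 9.17 at Grhl3, and all 9 had samples that did not overlap, against 28.9% of genes in this direction. Klf5 differed by -0.59 (interval -1.46 to 0.27, limma adjusted p 0.240), and by -1.63 without replicate 1 of 2225L, when it was called. This comparison shares 2151R with the first, so its counts are not further evidence. Macrophage markers were lower in 2225L than in 2151R in 7 of 7 genes (median -2.39), fibroblast markers in 3 of 6 (median -1.57), and B cell markers were higher in 2 of 3 (median 2.06), by limma with an adjusted p under 0.05. Of all 17271 genes, 4464 were lower and 22.8% higher by this rule. Marker levels in 2225L were -1.93 to -0.80, -0.89 to -0.82 and 1.0 to 1.18 for these lists, against 0.82 to 1.16, 0.51 to 1.48 and -0.44 to -0.14 in 2151R. Their part in the result was not tested.

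Within 2208L, the 4 samples titled PBS and the 3 titled 3day nt were compared in a fit of their own. Of the 10 members 1 was higher in PBS samples and 2 lower by limma with an adjusted p under 0.05, against 17.4% and 16.5% of all genes. Samples did not overlap at 5 of 10 members (Grhl2, Grhl3, Ovol1, Ovol2 and Esrp2), near the 44.8% of all genes for which this was so. Grhl2 was 1.42, 1.45, 1.33 and 1.37 in the PBS samples and 0.00, 0.91 and 0.47 in the 3day nt samples, a difference of 0.93 (SE 0.21, limma adjusted p 0.0175). Ovol2 went the other way, at 0.31, 0.39, 0.22 and 0.00 against 0.80, 0.996 and 0.86, a difference of -0.65 (SE 0.13, limma adjusted p 0.0119). Grhl3 did likewise, at 0.29, 0.05, 0.00 and 0.22 against 0.55, 1.38 and 1.12, a difference of -0.88 (SE 0.21, limma adjusted p 0.0207).

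Skeletal muscle RNA also differed within 2208L. The level of 8 skeletal muscle markers was 9.46 and 8.93 in replicates 6 and 8, both titled 3day nt, and from -5.58 to 1.88 in the other 6 samples of 2208L. Replicates 6 and 8 were the 2 lowest of the 8 samples at 5 of 10 members, Grhl2, Ovol1, Ehf, Esrp1 and Esrp2, and at 14.7% of all genes. Ehf, for example, was 0.00 and 0.37 in these samples and from 0.81 to 1.48 in the others. At Ovol2 and Grhl3 these samples were not low, and replicate 7, with a muscle level of 0.72, was the highest of the 3day nt samples at both (0.996 and 1.38).

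With the muscle level as a covariate 0 of 10 members were called. Grhl2 then differed by 0.60, Ovol2 by -0.63 and Grhl3 by -1.14, against 0.93, -0.65 and -0.88 without the covariate. Of all genes, 59 were higher and 22 lower with it, against 3007 and 2857 without it. Both muscle-high libraries are titled 3day nt, so muscle level and subset largely overlap and the fit separates them poorly. No member was called without replicate 8 (Grhl2 0.94, Ovol2 -0.67, Grhl3 -0.83) or with both muscle-high libraries left out, where only 1 sample titled 3day nt remains (Grhl2 0.48, Ovol2 -0.76, Grhl3 -1.24) and is assumed to vary like the PBS samples. Without replicate 7, 5 members passed, with Ehf at 0.96 and Esrp2 at 0.56. The Grhl3 call was lost as well without replicate 3 (-0.85) and after quantile normalization (-0.84). The CP numbers of the subsets run in separate ranges, so subset and any batch that these numbers mark cannot be told apart.

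**Figure D4:**
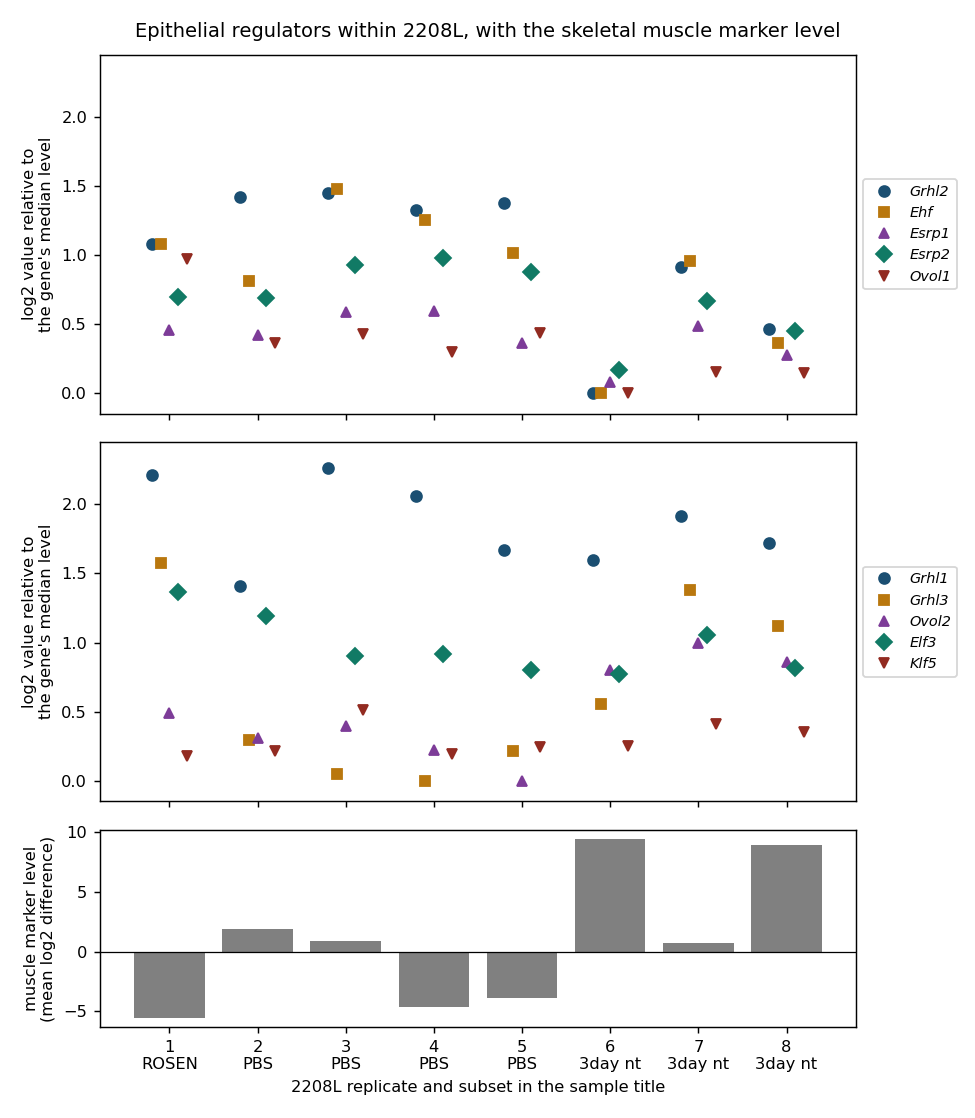
Log2 values of the 10 members in the 8 samples of 2208L (upper 2 panels) and the mean level of 8 skeletal muscle markers in the same samples (bars, relative to the mean over the 15 samples). Grhl2, Ovol1, Ehf, Esrp1 and Esrp2 are lowest in replicates 6 and 8, where the muscle level is 9.46 and 8.93, and Ovol2 is highest in replicates 6 to 8.

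The other genes of the epithelial programme were read from lists drawn from background knowledge, with earlier results of these data known. Their counts are therefore descriptive. Of 14 other epithelial transcription factors in the table, 8 fell in 2151R relative to 2208L and 2 rose (limma, adjusted p under 0.05, against 22.7% and 26.1% of all genes), with a median difference of -1.68. Tfap2c, an AP-2 factor of the mammary lineage, differed by -7.85 (SE 0.22). The 2 that rose were Gata3 (1.87) and Klf4 (2.36). Of 23 genes of epithelial junctions, polarity and surface proteases, 21 fell and 0 rose, with a median difference of -6.29, led by the claudins Cldn7 (-8.34, SE 0.31) and Cldn3 (-7.33, SE 0.20).

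EMT transcription factors moved in both directions. Of 9 such genes, Zeb1, Zeb2, Prrx1 and Tcf4 rose in 2151R relative to 2208L, Twist1 and Foxc2 fell, and 3 did not pass, by limma with an adjusted p under 0.05. Of all genes, 26.1% rose and 22.7% fell. In 2151R, Zeb1, the repressor opposed to Ovol2, had a mean of 3.20 ± 0.34 (SD, n = 4), while its mean in 2208L was -0.68 ± 0.65 (SD, n = 8) and T11 stood at 3.92. For Zeb2 the mean was 1.89 ± 0.34 (SD, n = 4) in the first model and -0.58 ± 0.53 (SD, n = 8) in the second, and T11 stood at 2.27. Twist1 differed by -0.79 and Foxc2 by -1.94.

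The Ets and Klf families set Elf3, Ehf and Klf5 in context. Of 22 other Ets genes in the table, 6 fell in 2151R relative to 2208L, 9 rose and 7 did not pass (limma, adjusted p under 0.05), where 22.7% of all genes fell and 26.1% rose, with a median difference of 0.29. The largest changes were at Elf5, an alveolar lineage factor (-5.39, SE 0.23), and Spdef, a secretory epithelial factor (-2.30, SE 0.59), and Elf5 was -12.42 in T11. Of 13 other Klf genes, 4 fell, 2 rose and 7 did not pass against the same shares, with a median of -0.11. Klf15 differed by -2.93 (SE 0.62) and Klf4 by 2.36 (SE 0.39). Spi1, Fli1 and Erg are Ets genes of blood and vessel cells, and were counted with the rest. Elf5, Spdef and Klf4 were also counted among the other epithelial transcription factors above, so the family counts partly repeat that count.

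Among 18 other splicing regulators, 10 rose in 2151R relative to 2208L, 1 fell and 7 did not pass (limma, adjusted p under 0.05), with a median of 0.57. Of all genes, 26.1% rose and 22.7% fell. Nova1, a neuronal splicing factor, was higher by 4.52 (SE 0.63) in 2151R but was -1.62 in T11, below its mean in 2208L of -0.04. Rbm47, an RNA-binding protein of epithelial cells, was the gene that fell, by 3.47 log2 units (SE 0.19). Of 12 genes with exons known to respond to Esrp proteins, 3 rose and 2 fell, close to the 26.1% and 22.7% of all genes. Fgfr2 was higher by 3.14 (SE 0.60) and Enah, an actin regulator, was lower by a difference of -2.77 (SE 0.17). In T11, Fgfr2 was -2.02 and Enah 0.88, near their means in 2208L of -2.06 and 1.14. In 2225L, where the Esrp genes were high, Fgfr2 differed from 2208L by 7.10 and Enah by -2.62. A link of these 2 genes to the Esrp genes was not tested. The table gives 1 value a gene, so exon choice in these genes was not analysed here.

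Genes near the members in the genome were examined next. For each member the 30 genes of the table on each side in RefSeq order (56 in all for Esrp1, and 60 for the others) had a median difference of 2151R from 2208L between -0.52 (Grhl1) and 0.79 (Grhl2), against -7.18 to -0.14 for the members themselves. For windows around all placed genes, the central 95% of such medians lay between -0.64 and 0.73. With 15 genes on each side the medians ran from -0.55 (Elf3) to 0.63 (Ovol1), with Grhl1 at -0.23 and Grhl2 at 0.59. The genes around Grhl2 were thus shifted in the direction opposite to Grhl2 itself. For the 30 genes around Grhl2 on each side T11 showed a median of 0.59 relative to 2208L.

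Genes with profiles like the members were found by the root mean square difference of centred values over the 15 samples. Closest to the mean of the 10 members were Cdh1, the gene of E-cadherin (0.22 log2 units), BC006965 (0.33), Fam83a (0.36), Map7, a microtubule-associated protein (0.39), and Spint1, an inhibitor of the epithelial protease matriptase (0.41), where the member mean itself spans 9.01. Closest to single members were Ttc39a for Grhl1 (0.34), Arhgef38 for Grhl2 (0.38), the keratin gene Krt79 for Grhl3 (0.77), Bcl11a for Ovol1 (0.64) and the polarity gene Crb3 for Ovol2 (0.42). For the rest they were Kdf1 for Elf3 (0.36), the adaptor gene Grb7 for Ehf (0.49), Cdcp1 for Esrp1 (0.42), the tight junction gene Marveld3 for Esrp2 (0.32) and Sox9 for Klf5 (0.22). Among the members, the closest pairs were Grhl2 with Esrp2 (0.50) and Ehf with Esrp1 (0.53). These distances are descriptive, and for members other than Klf5 they are set mainly by the gap between the models. Klf5 itself spans only 2.08, so its distance to Sox9 cannot be set beside that of Cdh1 to the member mean.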

How the data were processed

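RNA of 15 mammary tumours was sequenced after column isolation and poly(A) capture with an Illumina TruSeq kit, per the labels' protocols. The submitters' processing notes name STAR, Salmon and mm10, without versions or roles. The authors deposited log2 values for 17271 genes, relative to a median per gene, as the name the authors gave the table reads. The offset before the logarithm, the scaling between samples and the annotation are not given in the sources used here.

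The deposited values were fitted in limma 3.58.1 (R 4.3.3), with 1 mean per model over all 15 samples and no minimum fold. The subsets of 2208L had a fit of their own over 7 samples. A gene is said to rise or fall where its p-value, adjusted by Benjamini-Hochberg over all 17271 genes, was under 0.05. T11, with 1 sample, was read against 2 log2 units without a test. The fit was tested on simulated data. Gene order covers 16181 genes (93.7%) placed by symbol.

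Members, gene lists, tests and alternatives were chosen with earlier results of these data known. Outside the members, the 2 genes of a list with the largest called difference between 2151R and 2208L and the genes of the closest profile (predicted genes left out) were named, and 1 gene under this rule is not reported here. Others, in counts of 5 or fewer or as examples, were chosen after their values were seen. The members' promoters were read with Python 3.11.15.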

Additional observations from a re-analysis of the deposited data

Results flagged for a closer look

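Among 30 groups of 4 or 8 samples of the members, 3 held a sample far from the others, where chance gives about 1 in 20 groups, or 1.5. The PBS groups are part of the 2208L groups, so the groups are not separate and 1.5 is only a rough guide. Grhl3 was -7.47 in replicate 1 of 2151R while the other 3 samples shared -6.22, so any different value there would have been flagged. Ovol1 was 0.97 in replicate 1 of 2208L, the ROSEN sample, with the others from 0.00 to 0.43. Klf5 was 0.51 in replicate 3 among the PBS samples of 2208L, with the others from 0.19 to 0.24.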

How the results depend on the processing

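No paired analysis was possible because no replicate number in the titles links samples of different models. The count of members that differ stayed at 8 or 9 of 10 for 2151R against 2208L in 24 alternatives, and at 8 to 10 for 2225L against 2151R in 17. For 2225L against 2208L it was 1 after quantile normalization and 1 without genes that hold a repeated value, and from 1 to 2 when single samples were left out. For PBS against 3day nt samples it was 0 with the muscle level as a covariate, 0 without libraries of high muscle level and 0 with a minimum of 1 log2 unit, and from 0 to 5 when single samples were left out. The number of related pairs that differ was 0 after quantile normalization, 0 in the samples whose titles read NT, nt or PBS (where the smallest exact p is 0.0556), 1 with CP libraries only, and from 0 to 5 when single samples were left out. Members of T11 lower than 2151R by over 2 log2 units numbered 2 after quantile normalization. The titles NT, nt and PBS leave no sample of 2225L, so that setting gives no value there. Leaving out the muscle-high libraries was chosen after seeing the data.

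Some values that missed the threshold with all samples changed sign under other settings, and the cause was not tested. After quantile normalization Grhl2 was -0.0091 in 2225L against 2208L, Klf5 0.073 in PBS against 3day nt samples and Grhl2 minus Grhl1 0.15. Klf5 was 0.29 and 0.44 in 2225L against 2208L and 2151R with CP libraries only, and 0.017 in PBS samples after centring. In the same subset comparison Grhl1 was -0.11 with the muscle covariate, and Grhl1 was -0.067 and Elf3 -0.10 without the muscle-high libraries. In the samples whose titles read NT, nt or PBS, Grhl2 minus Grhl1 was 0.033 and Ovol1 minus Ovol2 -0.17. Leaving out single samples gave ranges of -0.31 to 1.0 for Ovol1 and -1.77 to 0.31 for Klf5 in 2225L against 2208L, -1.63 to 0.44 for Klf5 against 2151R, -0.034 to 0.25 for Grhl1 and -0.0072 to 0.16 for Elf3 in PBS against 3day nt samples, -0.14 to 0.089 for Grhl2 minus Grhl1 and -0.39 to 1.13 for Ovol1 minus Ovol2.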
